A study of Sus scrofa with 79 samples.

Results

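The 9 genes of the MHC class II pathway that the pig array could name were followed across whole blood, jejunum and ileum. They were SLA-DRA, SLA-DRB1, SLA-DQA1, SLA-DQB1, SLA-DMA, SLA-DMB, SLA-DOA, SLA-DOB and CD74. They were chosen by name, as the genes to which RefSeq links the accession of an array probe, and not by a rule on measured values. Earlier results of these data were known at the time of the choice. They are 9 of 36787 genes and unnamed accessions on the array, of which 2389 carried a gene symbol, and 32 of the 43603 probes measured them. SLA-DRA and SLA-DQA1 had 7 probes each, SLA-DRB1 and SLA-DQB1 had 4 each and the other 5 genes had 2 each. All 9 passed the filter on low values in every fit.

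MHC class II molecules are heterodimers of an alpha and a beta chain that display peptides of proteins taken up by the cell to CD4+ T cells. SLA-DRA with SLA-DRB1, and SLA-DQA1 with SLA-DQB1, encode the chains of the classical DR and DQ molecules that reach the surface. CD74, the invariant chain, holds newly made class II molecules and leads them to the endosome. There SLA-DMA and SLA-DMB form the DM molecule that exchanges the remnant of CD74 for peptide, and SLA-DOA and SLA-DOB form DO, which restrains DM and is known mainly from B cells. B cells, dendritic cells and macrophages carry these molecules, and in the small intestine epithelial cells and the lymphoid follicles of the ileum are also known to do so.

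The study asked how an antibiotic and handling in early life affected the piglets. T1 piglets of 16 sows were left undisturbed and were handled only for the drawing of blood at day 8. T2 piglets received tulathromycin, a macrolide antibiotic, under the skin of the neck at day 4 at 2.5 mg/kg body weight. T3 piglets received this injection and also the docking, clipping and weighing that the farm practised. Whole blood was taken at day 8, and jejunum and ileum at days 8, 55 and 176. Each of the 79 arrays held RNA of a pool, for which the methods give 4 piglets at day 8. There were 4 pools per treatment in each tissue and day, numbered 1 to 4 for T3, 5 to 8 for T2 and 9 to 12 for T1, with 3 pools analysed for T2 in ileum at day 8, in both tissues at day 55 and in jejunum at day 176, and for T3 in ileum at day 176. Pooling leaves the spread between single animals unmeasured. In whole pieces of tissue, fewer cells of a type and less RNA per cell cannot be told apart.

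Between 59.0% and 75.2% of the spots of a tissue array at day 8 stood well above background, and 34.8% to 44.1% in blood. At day 55 it was 57.0% to 65.3% in jejunum. In ileum of day 55 the T3 arrays had 42.4% to 52.0%, and those of T1 and T2 had 62.6% to 73.1%. At day 176 it was 46.9% to 74.8% in jejunum, with T1 pool 9 the lowest, and 61.0% to 72.6% in ileum. The 2 least typical arrays of their groups were jejunum T2 pool 8 of day 176, with a median correlation of 0.855 with its group, and blood T1 pool 11, with 0.885. Within jejunum and within ileum, no slide held arrays of more than 1 day, so that day and slide cannot be told apart in the comparisons of ages, and the treatments were also spread unevenly over the slides. The names of the arrays rest on the scanner files. Of the 79 columns of normalized values that the authors supplied as a table, 34 held the array they are named for (all of blood and of day 176), 44 held an array of another tissue or day with the same treatment and pool, and 1 held none of them. There, the columns of jejunum at day 8 hold the arrays of jejunum at day 55, those of ileum at day 8 hold jejunum at day 8, those of ileum at day 55 hold ileum at day 8, and those of jejunum at day 55 hold ileum at day 55. Under the scanner names, jejunum and ileum pools of the same number deviated together at day 8, with a mean correlation over genes of 0.183 against −0.0169 for other pools, while under the names of the table it was 0.0142 against −0.000119. At day 55 the same values were 0.0665 against −0.00659 and 0.0296 against −0.00311. FABP6, the bile acid binding protein of ileal enterocytes, did not separate the tissues under the scanner names. Its log2 signal was 5.24 to 15.77 in jejunum and 5.05 to 16.14 in ileum at day 8, 13.47 to 18.50 and 17.71 to 18.31 at day 55, and 6.92 to 18.43 and 18.26 to 18.64 at day 176. At day 8 it followed the pool, with a correlation of 0.98 between jejunum and ileum of the same number over 11 pools. Under the table's names FABP6 was 13.47 to 18.50 in jejunum and 5.24 to 15.77 in ileum at day 8, and 17.71 to 18.31 in jejunum and 5.05 to 16.14 in ileum at day 55, and its median was then higher in jejunum than in ileum, at 17.79 against 11.11 at day 8 and at 18.04 against 12.72 at day 55. The results below follow the scanner names, and the count under the names of the table is given beside each comparison of tissues and ages.

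None of the 32 probes was saturated on any array. All probes of SLA-DRA, SLA-DRB1, SLA-DQA1, SLA-DMA, SLA-DMB, SLA-DOA and CD74 were well above background on every array. Of the 4 SLA-DQB1 probes, 1 was above it on 10 and 1 on 11 of the 12 blood arrays. SLA-DOB stood nearest to background, with 1 probe above it on 0 of 12 blood arrays and the other on 9. In jejunum both SLA-DOB probes were above it on 11 of 12 arrays at day 8 and on 8 of 11 at day 176, and in ileum 1 of them on 9 of 11 arrays at day 8.

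One of the 4 SLA-DQB1 probes gave values that followed its place on the slide. On 6 arrays (blood T1 pools 9, 10 and 11, jejunum T2 pool 8 of day 8, and jejunum T3 pool 4 and T2 pool 8 of day 176) its log2 signal was 6.19 to 9.58, while it was 11.43 to 17.15 on the other 73. The 78 spots around it were also out of pattern there, with a correlation of 0.441 to 0.724 with their usual level, which was at least 0.935 on the other arrays. The other SLA-DQB1 probes deviated from their usual level by −0.91 to 0.59 on these arrays. The differences of SLA-DQB1 between tissues and ages, and those between treatments that are described for it, are therefore given with and without this probe.

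**Figure D1:**
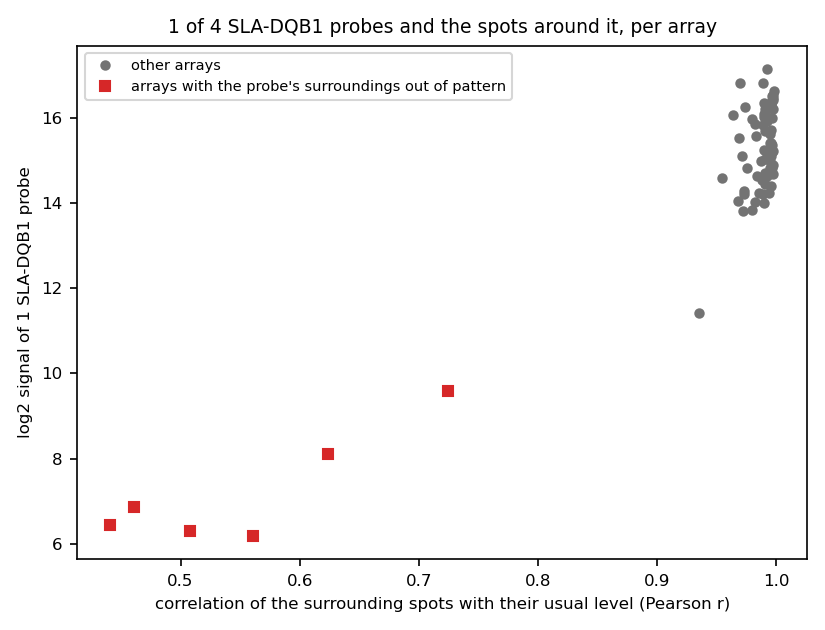
Log2 signal of 1 SLA-DQB1 probe on each of the 79 arrays (y axis) against the Pearson correlation of the 78 spots around it with their usual level (x axis). On 6 arrays (red squares) both were low, the signal at 6.19 to 9.58 and the correlation at 0.441 to 0.724.

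Across the tissues and ages, 7 of the 9 genes had their highest mean level in ileum of day 55, and SLA-DRB1 and CD74 in ileum of day 176. These levels are mean log2 signals after quantile normalization of all arrays together, given with the SD over the arrays of the tissue and day. SLA-DRA stood at 15.32 ± 0.15 (n = 11) in ileum of day 55, followed by ileum of day 176 at 14.89 ± 0.35 (n = 11), jejunum of days 55, 176 and 8 at 14.41 ± 0.30 (n = 11), 14.31 ± 0.33 (n = 11) and 14.09 ± 0.29 (n = 12), ileum of day 8 at 14.00 ± 0.27 (n = 11) and blood at 13.44 ± 0.24 (n = 12). In that order the steps on both sides of ileum of day 176 and the step down to blood were larger than the SD of either neighbour, and the 3 steps between were not. SLA-DQA1, SLA-DMA, SLA-DOA and SLA-DOB each had 1 step beyond the spread, which was the one below ileum of day 176. For SLA-DQB1 the 3 upper steps were, below ileum of days 55 and 176 and below jejunum of day 55. No step between neighbours exceeded the spread for SLA-DRB1, SLA-DMB or CD74, where the levels formed a gradual series.

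SLA-DMB was the gene with blood near the top, at 11.90 ± 0.24 (n = 12) between ileum of day 55 at 12.15 ± 0.27 and ileum of day 176 at 11.77 ± 0.30. CD74 ran from 13.07 ± 0.71 (n = 11) in ileum of day 176 to 11.53 ± 0.63 (n = 12) in blood, and SLA-DRB1 from 15.12 ± 0.39 to 13.33 ± 0.36 between the same places. The lowest mean of SLA-DQA1, SLA-DMA, SLA-DMB, SLA-DOA and SLA-DOB was that of ileum at day 8. Ileum therefore held both ends of the range for 5 of these genes.

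**Figure D2:**
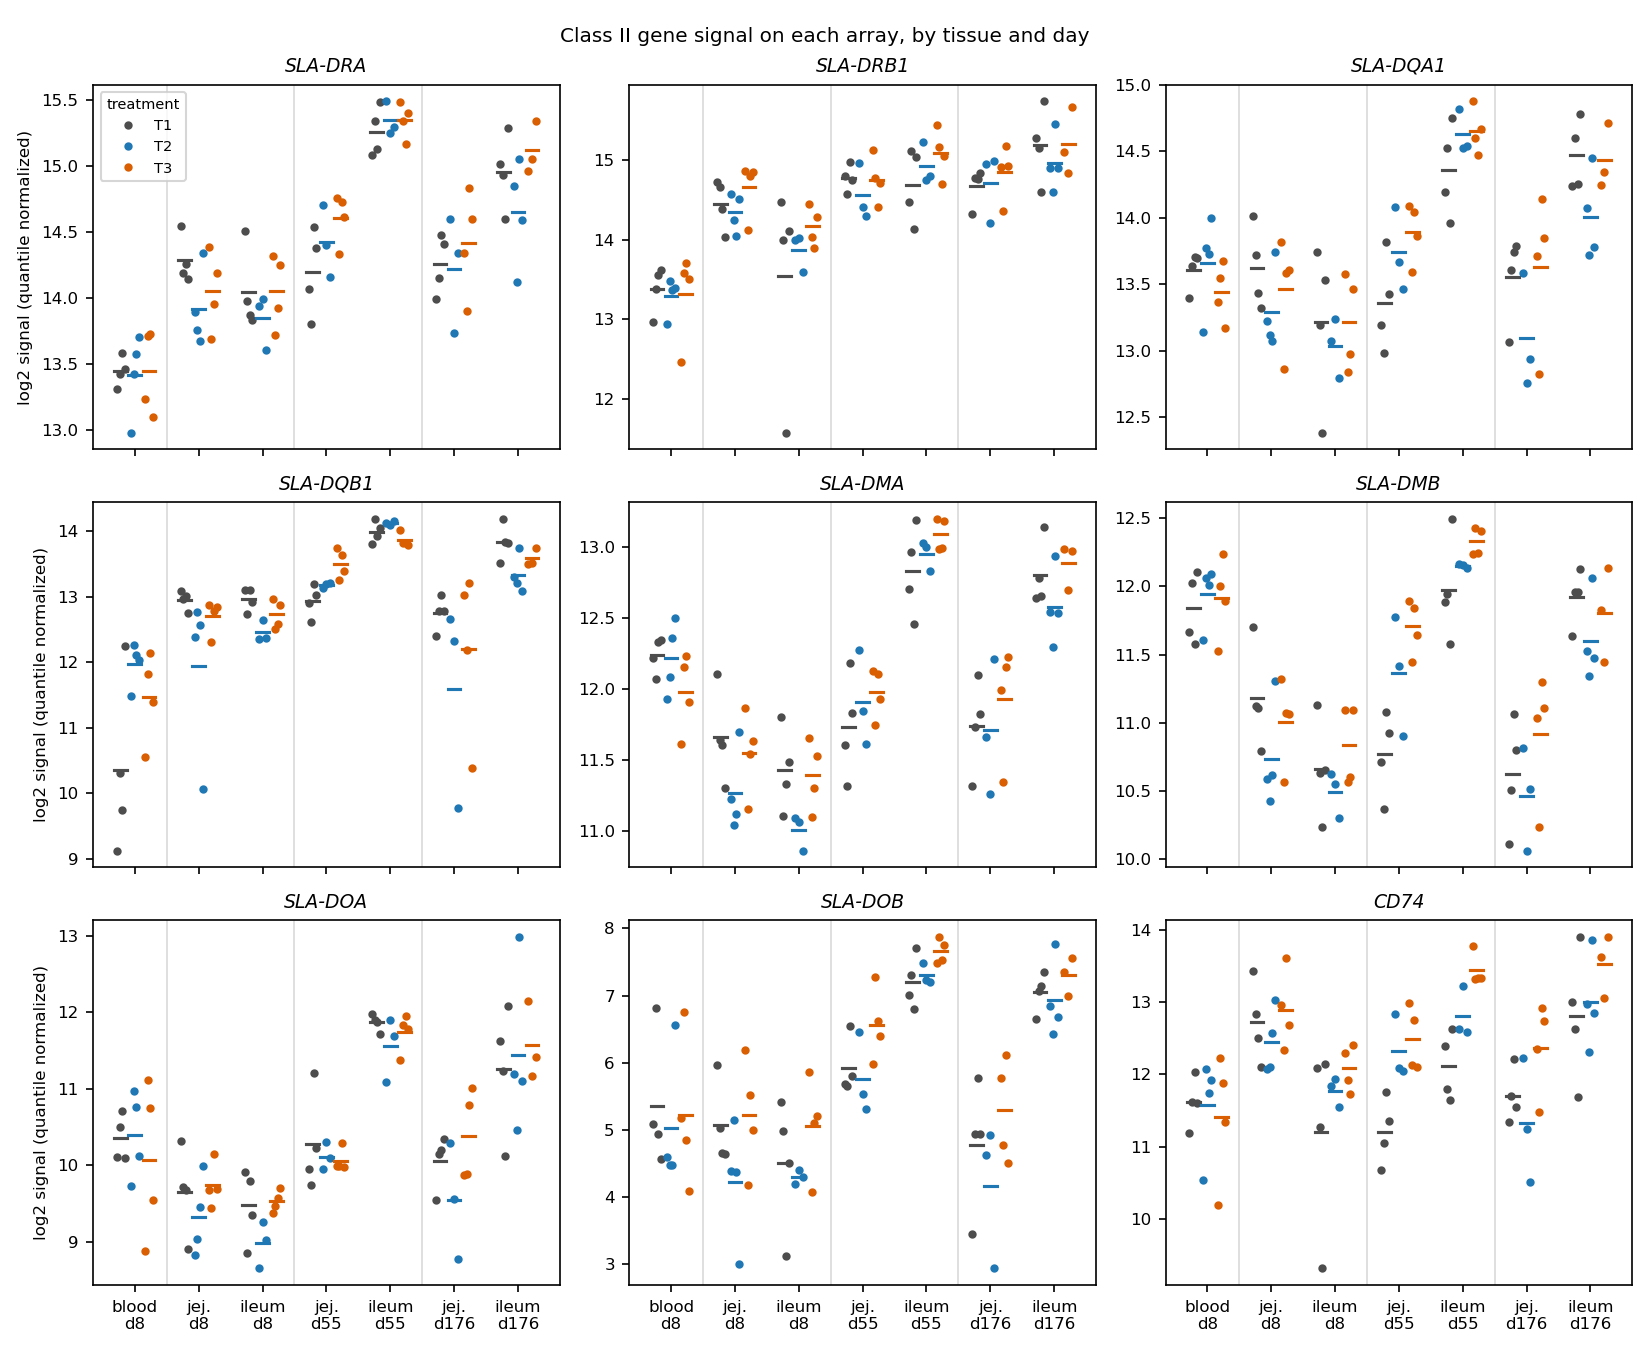
Log2 signal of each class II gene (1 panel per gene, y axis) on every array, by tissue and day (x axis) and treatment (colours), with short lines at the treatment means. SLA-DRA in ileum of day 55 lay at 15.08 to 15.49, above all its values at day 8.

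In ileum, all 9 class II genes rose from day 8 to day 55, where 40% of all genes tested were called. A gene was called at an adjusted p under 0.05 and a fold change above 1.5. SLA-DRA was 13.61, 13.94 and 14.51 (lowest, median and highest log2 signal) at day 8 and 15.08, 15.34 and 15.49 at day 55, so that the ages did not overlap. It rose by 1.34 on the log2 scale (SE 0.13, fold 2.53, adjusted p = 7.27e-14). SLA-DQA1 went from 12.38, 13.20 and 13.74 to 13.96, 14.54 and 14.88, again without overlap, and rose by 1.39 (SE 0.15). SLA-DRB1, the DR beta chain, was 11.57, 14.02 and 14.48 at day 8 and 14.13, 15.05 and 15.45 at day 55 and rose by 1.05 (SE 0.20, adjusted p = 8.76e-06), with some overlap of the ages. SLA-DQB1, the DQ beta chain, rose by 1.27 (SE 0.27, adjusted p = 7.49e-05), or by 1.10 without the probe described above. All 4 classical chains were thus higher at day 55.

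The genes of the peptide exchange rose too, and the DO genes showed the largest differences of the 9. SLA-DMA was 10.86, 11.30 and 11.80 at day 8 and 12.46, 12.99 and 13.20 at day 55, a rise of 1.68 (SE 0.13, adjusted p = 1.11e-17). Its partner SLA-DMB rose by 1.49 (SE 0.14). Neither gene had a pool of day 8 that reached the pools of day 55. SLA-DOA went from 8.65, 9.38 and 9.91 to 11.09, 11.83 and 11.98, a rise of 2.39 (SE 0.24, fold 5.25). SLA-DOB, the beta chain of DO, went from 3.12, 4.50 and 5.86 to 6.80, 7.49 and 7.88, a rise of 2.78 (SE 0.31, fold 6.85, adjusted p = 1.78e-11), or of 1.54 with normexp background correction. Both chains of DO lay above their day 8 range in every pool of day 55. CD74 was 9.32, 11.93 and 12.41 at day 8 and 11.65, 12.64 and 13.78 at day 55, with overlap, and rose by 1.10 (SE 0.26, adjusted p = 0.0004).

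All 9 rises in ileum held without any single array and in each other setting that kept the scanner names. Scaling to the 75th percentile in place of quantile normalization moved the median of all genes in this comparison by 0.45 to 0.55, and the members' median was then 1.08, with all 9 above the median of all genes. Ileum T1 pool 11 of day 8 was the lowest array for SLA-DRB1 at 11.57, where the others were 13.59 to 14.48, and for CD74 at 9.32, where the others were 11.28 to 12.41. It was also the lowest for SLA-DQA1 at 12.38, where the next was 12.79, and for SLA-DOB at 3.12, where the next was 4.07, while SLA-DRA and SLA-DQB1 were not low on it, at 13.88 and 13.10. Under the table's names, 0 of 9 members were called in this comparison.

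In jejunum, 3 of 9 genes were called between day 8 and day 55, where 30.3% of all genes were. SLA-DOB was 3.00, 4.82 and 6.19 at day 8 and 5.30, 5.97 and 7.27 at day 55 and rose by 1.24 (SE 0.30, adjusted p = 0.000668). With normexp background correction this difference was 0.53, under the fold threshold. CD74 was 12.07, 12.63 and 13.61 at day 8 and 10.67, 12.09 and 12.98 at day 55 and fell by 0.68 (SE 0.26, adjusted p = 0.0309), the one member that went down. SLA-DQB1 rose by 0.67 (SE 0.26, adjusted p = 0.0384), a call that was lost without the probe described above, at 0.21 and an adjusted p of 0.283. SLA-DRA, SLA-DMA and SLA-DOA differed by 0.32, 0.38 and 0.58 at adjusted p of 0.0352, 0.0125 and 0.0454 and stayed under the fold of 1.5. SLA-DMB, SLA-DRB1 and SLA-DQA1 differed by 0.31, 0.21 and 0.20 and did not pass. With scaling to the 75th percentile 7 genes were called, SLA-DRA, SLA-DRB1, SLA-DQA1, SLA-DQB1, SLA-DMA, SLA-DOA and SLA-DOB, all higher at day 55, and CD74 at −0.33 was not. Under the names of the authors' table, 8 of 9 were called, all higher.

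The difference between the tissues in this change was itself tested. From day 8 to day 55, 8 of 9 genes rose more in ileum than in jejunum, in a test that called 25.4% of all genes. CD74 had a difference of 1.78, as it went up in ileum and down in jejunum. SLA-DOA, SLA-DOB, SLA-DMA, SLA-DQA1, SLA-DMB, SLA-DRA and SLA-DRB1 were at 1.81, 1.53, 1.30, 1.19, 1.18, 1.01 and 0.83. SLA-DQB1 was at 0.60 (adjusted p = 0.258) and passed at 0.89 (adjusted p = 0.000755) without the affected probe. With scaling to the 75th percentile, which moved the median of all genes by 0.56 here, 5 genes were called, CD74, SLA-DMA, SLA-DMB, SLA-DOA and SLA-DOB, and SLA-DRA and SLA-DRB1 were at 0.15 and 0.04. Under the table's names the direction turned, with 0 genes higher and 8 lower, at −1.74 to −0.81 over the 9.

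**Figure D3:**
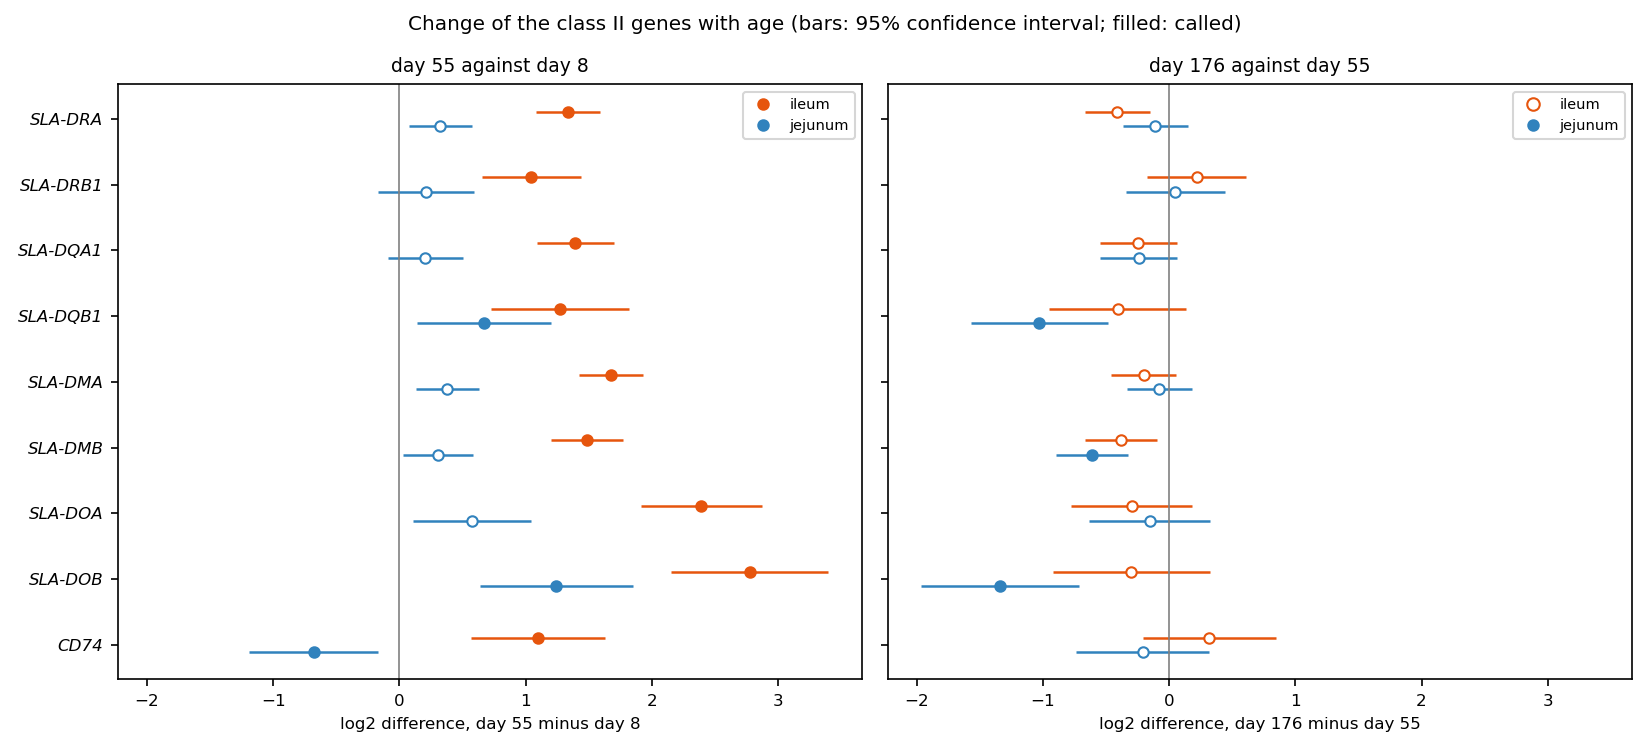
Log2 difference of each class II gene between ages, day 55 minus day 8 (left) and day 176 minus day 55 (right), in ileum and jejunum, with 95% confidence intervals and filled points for called genes. In ileum all 9 genes rose from day 8 to day 55, from 1.05 for SLA-DRB1 to 2.78 for SLA-DOB, and none was called afterwards.

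Markers of other cells moved over the same interval. In ileum, both B cell genes tested rose, CD79A of the B cell receptor by 5.82 and CD72 by 4.04. The CD79A probe was not well above background on every day 8 array of ileum or of jejunum. A summed level is the mean log2 signal over the listed genes kept over all arrays, 2 for B cells. That of the B cell list went from 5.13 to 9.31 over the arrays of day 8 to 11.36 to 12.32 at day 55. All 6 T cell genes tested rose, among them CD247 by 3.38 and CD8A by 3.01, as did 6 of 10 genes of dendritic cells and macrophages, with CCR7, a homing receptor, at 4.25 and CD163 at 1.91. All 10 genes of T cell help and costimulation rose, with ICOS at 2.85 and LAG3 at 2.84. In jejunum, 1 of 2 B cell genes rose, CD72 by 1.23, and the B cell list went from 5.49 to 9.51 at day 8 to 7.81 to 10.60 at day 55. The T cell list there had 6 of 6 genes higher, with CD8A at 3.37 and CD3G at 3.00, and the costimulation list 8 of 10. The B cell lists thus overlapped between the ages in jejunum and not in ileum. The part of these cells in the class II differences was not tested.

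Genes that act before or beside class II did not share one direction. The cathepsins and other genes of antigen processing fell, 5 of 5 in ileum, with CTSH at −2.85 and CTSB at −2.63, and 4 of 5 in jejunum, with CTSH at −3.99 and CTSB at −2.78. Interferon gamma, the cytokine that induces class II, rose by 3.09 in ileum and 4.16 in jejunum, with 3 of 7 and 5 of 7 genes of its signalling higher, IRF1 at 1.33 in jejunum. NFYB, a subunit of a factor that binds class II promoters, rose in jejunum by 0.85 and was at 0.36 in ileum, where it did not pass. In the epithelium list 1 of 9 genes was higher and 5 lower in ileum, and 3 higher and 0 lower in jejunum. The plasma cell list had 1 of 2 genes higher in each tissue, and the smooth muscle list 4 of 4 lower in ileum and 3 of 4 lower in jejunum.

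From day 55 to day 176, no class II gene was called in ileum and 3 fell in jejunum. In ileum 0 of 9 genes were called, against 21.1% of all genes, with SLA-DRA at −0.41 (adjusted p = 0.0118) and SLA-DMB at −0.38 (adjusted p = 0.0406) as the 2 members under an unadjusted p of 0.05, and the other 7 between −0.40 and 0.32. SLA-DQB1, at −0.40, was at −0.55 (adjusted p = 0.00417) without the affected probe, under the fold threshold. In jejunum 3 were called, against 29.8% of all genes. SLA-DOB was 5.30, 5.97 and 7.27 at day 55 and 2.93, 4.93 and 6.11 at day 176 and fell by 1.34 (SE 0.31, adjusted p = 0.000428), which was −0.53 with normexp correction and then under the fold threshold. SLA-DMB was 10.37, 11.42 and 11.89 and then 10.06, 10.80 and 11.30 and fell by 0.61 (SE 0.14, adjusted p = 0.000453). Both genes overlapped between the ages. SLA-DQB1 fell by 1.03 (SE 0.27, adjusted p = 0.00182), which without the affected probe became −0.54 and stayed under the fold threshold. The change of jejunum and ileum from day 55 to day 176 was not called different for any member, where 21.1% of all genes were, with a lowest adjusted p of 0.0798. With scaling to the 75th percentile 5 were called, and under the table's names all 9, with positive values of ileum minus jejunum.

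With that scaling the median of all genes moved by 0.52 in jejunum, to 0.51, and all 9 members lay below it. In ileum SLA-DRB1 was then called, at 0.68. By the names in the authors' table, 8 members were lower at day 176 in jejunum and 9 higher in ileum. In jejunum 6 of 10 genes of costimulation fell over this interval, with CD274, a checkpoint ligand, at −1.94 and CD40LG at −1.50, and 1 of 10 genes of dendritic cells and macrophages, FCGR1A, at −3.54. The FCGR1A probe was well above background on no jejunum array of day 176. In ileum 4 of 5 neutrophil genes and 1 costimulation gene rose. HBE1, the one erythroid gene on the array, fell by 1.44 in jejunum and by 1.38 in ileum. Its probe was well above background on no ileum array of day 176. In ileum of day 55 and in jejunum of both days it was not so on every array.

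Between ileum and jejunum of the same age, 1 class II gene was called at day 8 and 8 were higher in ileum at each later age. At day 8, 1 of 9 was called, against 3.6% of all genes. This was CD74, which was lower in ileum by 0.96 (SE 0.27, adjusted p = 0.0426), at 9.32, 11.93 and 12.41 against 12.07, 12.63 and 13.61 in jejunum, with overlap. The call was lost in 20 of 34 other settings, with values from −1.59 to −0.69, and with the pool as a block, since both tissues came from the same animals, it was −0.90 (adjusted p = 0.0714). The other 8 differed by −0.54 (SLA-DRB1, SE 0.22, adjusted p = 0.127) to 0.20 (SLA-DQB1, 0.03 without the affected probe). Under the table's names 1 member was higher and 2 were lower at day 8.

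At day 55, 8 of 9 genes were higher in ileum, against 40.9% of all genes called. SLA-DRA was 15.08, 15.34 and 15.49 in ileum and 13.81, 14.40 and 14.76 in jejunum on the common scale, with no overlap, and was higher by 0.78 (SE 0.10, adjusted p = 1.48e-06) in the fit of that day. SLA-DMA, at 12.46, 12.99 and 13.20 against 11.32, 11.85 and 12.27, did not overlap either and was higher by 1.05 (SE 0.12). SLA-DQB1, SLA-DQA1, SLA-DMB and CD74 were higher by 0.68 (0.73 without the affected probe), 0.84, 0.85 and 0.76. Of these, SLA-DQB1 alone did not overlap on the common scale. On the scale of the fit of that day SLA-DQB1 overlapped, with its lowest ileum pool at 14.32 and its highest jejunum pool at 14.35. SLA-DQA1 did not overlap there, at 14.97 and 14.94. The DO genes again had the largest differences, SLA-DOA at 1.59 (SE 0.15, adjusted p = 6.54e-08) and SLA-DOB at 1.38 (SE 0.19), though the lowest ileum pools reached the highest of jejunum. SLA-DRB1, at 14.13, 15.05 and 15.45 against 14.30, 14.75 and 15.14, was the gene without a call, at 0.19 (adjusted p = 0.225). Every probe kept for the 9 genes was higher in ileum, from 0.56 to 0.90 over the probes of SLA-DRA and from 0.07 to 0.29 over those of SLA-DRB1.

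At day 55 the scaling mattered. With scaling to the 75th percentile the median of all genes was 0.41 in place of 0.04 and the members' median 0.36 in place of 0.84, so that 3 genes were called, SLA-DOA at 1.34, SLA-DOB at 1.67 and SLA-DMA at 0.65, 4 of 9 members lay above the median of all genes, and SLA-DRB1 was at −0.46. The share of all called genes that were higher in ileum was 49.4% with quantile normalization and 74.0% with that scaling. No slide of day 55 held both tissues, so that tissue and slide cannot be told apart at this age for any treatment. With the authors' table as the source of names, all 9 genes were lower in ileum, by −2.87 to −0.90, as its columns of these names hold other arrays.

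At day 176, 8 of 9 genes were again higher in ileum, against 26.5% of all genes called. SLA-DOB, at 6.43, 7.07 and 7.77 in ileum and 2.93, 4.93 and 6.11 in jejunum, did not overlap and was higher by 2.31 (SE 0.30, fold 4.96, adjusted p = 1.01e-05). Each of its probes was well above background on 8 of the 11 jejunum arrays. Over 33 other settings its difference ranged from 1.26 to 2.45. SLA-DMA and SLA-DMB, which did not overlap between the tissues either, were higher by 0.98 (SE 0.15) and 1.12 (SE 0.16). SLA-DOA, CD74 and SLA-DQA1 were higher by 1.40, 1.29 and 0.89 with overlapping pools. SLA-DQB1 was higher by 1.32 and by 0.87 without the affected probe. SLA-DRA, at 14.12, 14.97 and 15.34 against 13.73, 14.35 and 14.84, was higher by 0.64 (SE 0.16, adjusted p = 0.00455). Its difference was 0.58 with the pool as a block (adjusted p = 0.0182), under the fold threshold, and was also lost without jejunum T3 pool 2 or jejunum T2 pool 6. SLA-DRB1 was at 0.37 (adjusted p = 0.112) and thus passed at no age. With the slide as a fixed term in the model 0 of the 8 calls held, at adjusted p of 0.185 to 0.808, with differences of 0.47 for SLA-DOA, 0.60 for CD74, 1.45 for SLA-DOB and 0.84 to 1.17 for the other 5. Scaling to the 75th percentile kept a count of 8, and the names of the table are the same as those of the scanner files at this day.

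**Figure D4:**
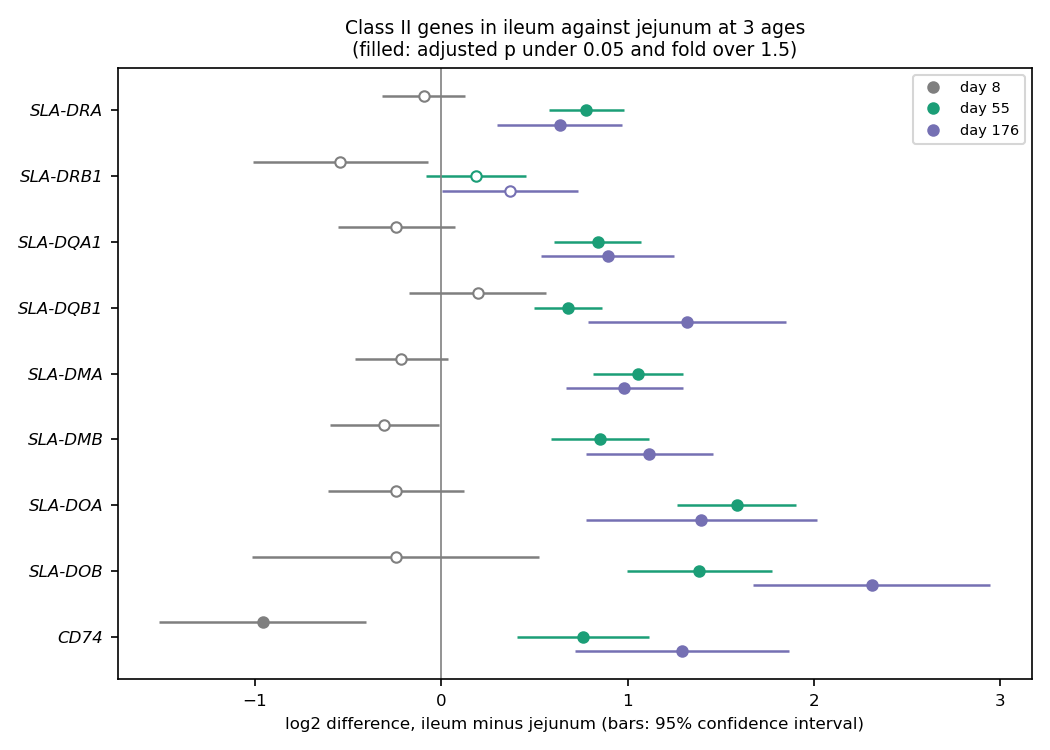
Log2 difference of each class II gene, ileum minus jejunum, at days 8, 55 and 176, with 95% confidence intervals and filled points for called genes. At day 8 CD74 alone was called, at −0.96, while 8 of 9 genes were higher in ileum at day 55 and at day 176.

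Among the other lists, B cell genes were higher in ileum at the 2 later ages and at day 8 were not. At day 55, CD79A was higher by 3.99 and CD72 by 2.37 (2 of 2 genes), and at day 176, CD79A was higher by 4.76 (3 of 3 genes of the list). The CD79A probe was not well above background on every jejunum array of day 176. The summed level of the B cell list, over 2 genes, was 11.36 to 12.32 in ileum and 7.81 to 10.60 in jejunum at day 55. At day 176 it was 10.73 to 12.12 in ileum and 3.73 to 9.93 in jejunum. Genes of costimulation had 5 of 10 higher and 2 lower at day 55, with CD40 at 2.27 and ICOS at 1.26, and 8 of 10 higher at day 176, with ICOS at 2.24 and CTLA4 at 2.22. Genes of dendritic cells and macrophages had 4 higher and 3 lower of 11 at day 55, with CCR7 at 3.15 and LY86 at 2.85, and 4 higher and 1 lower of 9 at day 176, with CCR7 at 3.26 and CD14 at 2.35. T cell genes had 2 of 7 higher at day 55 and 0 of 6 at day 176. The summed B cell level of every ileum pool was above that of every jejunum pool at both later ages.

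Epithelial genes went the other way, with 6 of 9 lower in ileum at day 55, FABP2 at −1.92 and APOA4 at −1.82, and 7 of 9 lower at day 176, FABP2 at −2.98 and APOA1 at −2.71. Of antigen processing, the cathepsin CTSH and the thiol reductase IFI30 were higher, by 0.69 and 0.62 at day 55 and by 1.24 and 0.96 at day 176, while CTSV was lower, by 1.51 and 1.28. The interferon gamma list had 2 of 7 genes lower at day 55 and none called at day 176. At day 8, 1 of 6 genes of antigen processing was lower in ileum and no gene of the other lists was called. The part of B cells, of other immune cells and of epithelium in the class II differences was not tested.

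Blood differed from the gut in both directions at day 8. Blood and gut of a pool came from the same animals, and the comparison did not use this pairing. Against jejunum 7 of 9 genes were called, 3 higher and 4 lower in blood, where 75.6% of all genes were called, and against ileum 4 of 9, 3 higher and 1 lower, where 74.2% were. The share of called members was thus near that of all genes against jejunum and below it against ileum. The genes of peptide exchange were higher in blood. SLA-DMA, at 11.61, 12.19 and 12.50 in blood and 11.05, 11.58 and 12.11 in jejunum, was higher by 0.65 against jejunum (SE 0.12) and by 0.87 against ileum. SLA-DMB, its partner, was 11.53, 12.01 and 12.24 in blood and 10.43, 11.07 and 11.70 in jejunum, and was higher by 0.93 (SE 0.14, adjusted p = 1.08e-08) and by 1.24. SLA-DOA was higher by 0.70 (adjusted p = 0.0045) and by 0.94. SLA-DOB was at 0.36 and 0.58 and did not pass, with most of its blood values near background.

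The classical chains and CD74 were not. SLA-DRA, at 12.98, 13.44 and 13.73 in blood and 13.68, 14.17 and 14.55 in jejunum, was lower in blood by 0.65 (adjusted p = 2.8e-06) and at −0.55 against ileum, under the fold threshold. SLA-DRB1 was lower than in jejunum by 1.16 and at −0.53 against ileum, while SLA-DQA1 was at 0.11 and 0.42 and was not called. CD74 was lower than in jejunum by 1.15 (SE 0.25) and at −0.16 against ileum. SLA-DQB1 was lower by 1.26 and 1.45, or by 0.98 and 0.89 without the affected probe. With scaling to the 75th percentile the median of all genes moved by 1.12 and 1.29, to 1.39 and 1.55, and 1 of 9 members, SLA-DOB, lay above it in each comparison. SLA-DRA against jejunum was then at −0.10 (adjusted p = 0.45) and lost its call, while SLA-DQA1 at 0.63 and 0.85 and SLA-DOB at 1.42 and 1.80 were called higher in blood.

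Markers of blood and of gut epithelium lay far apart, with all 5 neutrophil genes higher in blood (S100A9 by 8.69 and S100A8 by 8.64 against jejunum), HBE1 by 12.69, and all 9 epithelial genes lower (APOA1 by 14.37 and FABP2 by 12.31). Blood also had higher T cell genes, 6 of 6, and 2 of 2 B cell genes, CD79A by 2.43, with a summed B cell level of 5.76 to 10.89. The CD79A probe was not well above background on every array of blood or of jejunum at day 8. Of the dendritic cell and macrophage list 8 of 10 were higher and 2 lower, with CCR7 at 6.21 and CD14 at 4.74. All 5 genes of antigen processing were lower, with CTSB at −5.15 and CTSV at −4.60, as were 4 of 4 smooth muscle and 2 of 2 plasma cell genes. By the table's names, 5 of 9 members were called against jejunum and 7 against ileum.

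Between the treatments, few class II genes differed, and those that did were found at day 55. The share of all genes called in a comparison was also largest there, at up to 14.8%. It was up to 1.07% at day 8 and up to 1.59% at day 176. At day 8, 0 of 9 genes were called in any of the 6 comparisons of the tissues. In jejunum, T2 versus T1, T3 versus T1 and T3 versus T2 called 0.0212%, 0% and 0% of all genes, and 1, 0 and 0 members had an unadjusted p under 0.05. In ileum the same comparisons called 0.418%, 1.07% and 0.0283%, with 0 members under an unadjusted p of 0.05 in each. The members' differences lay between −0.996 and −0.09 for T2 versus T1 in jejunum, all 9 negative, and between 0.13 and 1.14 for T3 versus T2, all 9 positive, in comparisons that share the T2 arrays. In ileum all 9 were positive for T3 versus T2 too, from 0.15 to 0.85. None of these passed the test. SLA-DQB1 for T2 versus T1 in jejunum was at −0.78, and at −0.38 without the affected probe. Lists of other cells were also lower in jejunum T2 than in T1 without overlap, with summed levels of 8.02 to 8.27 against 8.57 to 9.15 for dendritic cells and macrophages, 6.47 to 6.77 against 7.05 to 7.43 for T cells and 9.41 to 10.08 against 10.65 to 11.49 for plasma cells, and 0 genes of these lists called. Their part in the class II values was not tested. The T1 arrays of jejunum lay on another slide than those of T2 and T3. In ileum the T3 arrays lay on another slide than those of T1 and T2. Treatment and slide thus cannot be told apart for T2 versus T1 in jejunum, for T3 versus T2 in ileum, or for T3 versus T1 in either tissue. The difference of the treatments between the tissues was called for 0 of 9 members, where 0.00708%, 0.0354% and 0.00708% of all genes were. A treatment term over both tissues passed for 109 of 28236 genes and for 0 of the 9.

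In blood 0 of 9 genes were called in the 3 comparisons, which called 0.00694%, 0.00347% and 0% of all genes for T2 versus T1, T3 versus T1 and T3 versus T2. One member had an unadjusted p under 0.05 for T2 versus T1, and 0 for the others. This was SLA-DQB1, at 1.21 (adjusted p = 0.422) and at −0.13 without the affected probe, which was low on 3 of the 4 T1 arrays. The median difference of the 9 genes was 0.05 for T2 versus T1, −0.18 for T3 versus T1 and −0.24 for T3 versus T2. The T1 arrays of blood lay on another slide than those of T2 and T3.

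At day 55, 5 of the 54 differences over both tissues were called, all higher in treated piglets. The same comparisons called 0.08% to 14.8% of all genes, and the share of each is given with it. CD74 in jejunum was 11.42, 11.81, 12.52 and 12.11 in T1 pools 9 to 12, 13.58, 12.87 and 12.81 in T2 pools 5 to 7 and 13.74, 12.92, 13.52 and 12.89 in T3 pools 1 to 4, on the scale of day 55. Every T2 and T3 pool was above every T1 pool. In the comparison of T3 versus T1 CD74 was higher by 1.30 (adjusted p = 0.00398), where 12.2% of all genes were called and 3 of 9 members. In that of T2 versus T1 it was higher by 1.12 (adjusted p = 0.0464), the 1 member called where 3.32% of all genes were, and this call was lost in 17 of 31 other settings.

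In ileum CD74 was 13.14, 12.56, 12.41 and 13.38 in T1, 13.37, 13.95 and 13.33 in T2 and 14.50, 14.06, 14.07 and 14.07 in T3. All T3 pools stood above all T1 and T2 pools. The T3 arrays of ileum also had fewer spots well above background, at 42.4% to 52.0% against 62.6% to 73.1% for T1 and T2. T3 was higher than T1 by 1.31 (adjusted p = 0.00364), the 1 member called in a comparison that called 14.8% of all genes. T2 versus T1 called 0.08% and T3 versus T2 8.26% of all genes in ileum, and T3 versus T2 0.86% in jejunum, with 0 members in each and 1, 0 and 1 under an unadjusted p of 0.05.

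SLA-DMB and SLA-DQB1 were also higher in T3 than in T1 in jejunum. SLA-DMB was 11.44, 11.10, 11.80 and 11.65 in T1, 12.50, 12.17 and 11.63 in T2 and 12.64, 12.21, 12.59 and 12.40 in T3. The T3 pools lay above the T1 pools, by 0.96 on average (adjusted p = 0.00378), and this call was lost in 0 of 31 other settings. SLA-DQB1 was 13.46, 13.21, 13.78 and 13.61 in T1 and 14.35, 13.86, 14.26 and 13.97 in T3, without overlap, and was higher by 0.59 (adjusted p = 0.00868). The fit held 3 of its 4 probes, as 1 lacked a value on 1 array of day 55. Without the affected probe, which was not low on any array of day 55, the difference was 0.87 (adjusted p = 0.00897). It was 0.38 (adjusted p = 0.0851) without ileum T2 pool 5, an array outside this comparison. With each tissue normalized and fitted alone it was 0.41 (adjusted p = 0.121). The call was lost in 9 of 31 other settings. In ileum SLA-DQB1 was 14.32, 14.62, 14.44 and 14.55 in T1 and 14.56, 14.37, 14.39 and 14.34 in T3, where the groups overlapped. No difference of the treatments between the tissues was called for a member at day 55, where 0.263%, 5.96% and 0.513% of all genes were, with a lowest adjusted p of 0.0578.

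**Figure D5:**
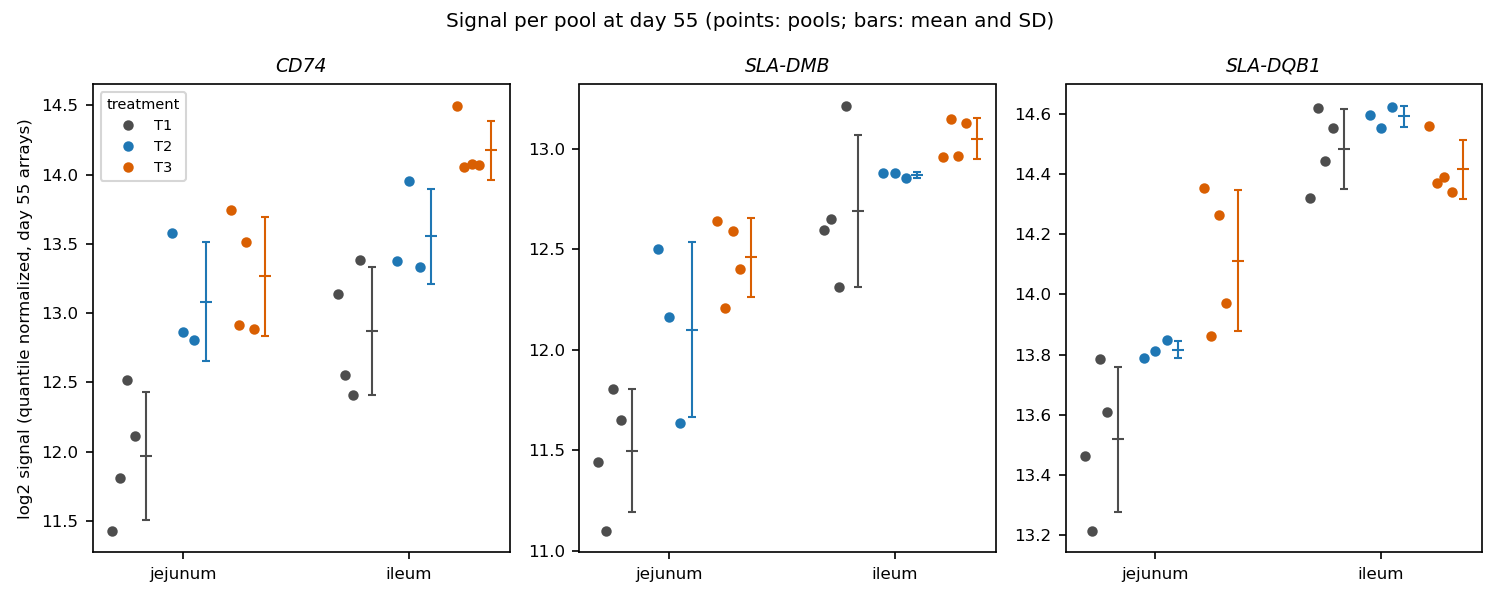
Log2 signal of CD74, SLA-DMB and SLA-DQB1 in each pool of day 55, by tissue (x axis) and treatment (colours), with the mean and SD of each group. CD74 of jejunum was at 11.42 to 12.52 in T1 and at 12.81 or more in every T2 and T3 pool.

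At day 55 the T3 arrays of each tissue lay on another slide than those of T1 and T2, so that for T3 the treatment and the slide cannot be told apart, while T2 versus T1 was a comparison within a slide. Over all arrays of the series together, 1 of the 5 calls was made, SLA-DMB. Beside them in jejunum of T3 versus T1, 5 of 7 T cell genes were higher, with CD247 at 1.12 and LCK at 1.07, and the cathepsins CTSD and CTSB were higher by 1.73 and 1.09. The plasma cell list had 2 of 2 genes higher, and its summed level in jejunum was 11.99 to 12.36 in T1, 12.87 to 13.58 in T2 and 13.34 to 13.83 in T3. In ileum CTSD and CTSB were higher by 0.75 and 0.72. In jejunum of T2 versus T1, 3 of 6 genes of antigen processing were higher, with CTSD at 1.40 and LAMP1 at 1.25. Their part in the class II differences was not tested. By the table's names, 0 members were called at day 55 and 2 at day 8, in T3 versus T1 of jejunum.

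At day 176, 0 of 54 differences were called. T2 versus T1, T3 versus T1 and T3 versus T2 called 1.59%, 0% and 1.16% of all genes in jejunum and 0.0106%, 0.00354% and 0% in ileum, and 1 member had an unadjusted p under 0.05, for T3 versus T2 in jejunum. The lowest adjusted p of a member was 0.251. All 9 members were positive for T3 versus T2 in both tissues, by 0.14 to 1.16 in jejunum and by 0.14 to 0.53 in ileum, without passing. In jejunum the T3 arrays lay on another slide than those of T1 and T2, and in ileum the T1 arrays lay on another slide than those of T2 and T3. The difference between the tissues was called for 0 members and for 0.726%, 0% and 0.23% of all genes.

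Over the 21 group means of tissue, day and treatment, the members followed each other unevenly. The Pearson correlation was 0.97 for SLA-DMA with SLA-DOA, 0.94 for SLA-DQA1 with SLA-DMA and with SLA-DOB, 0.33 for SLA-DQB1 with SLA-DMB and 0.11 for SLA-DRB1 with SLA-DMB, the lowest pair. These points share arrays between genes and a normalization, and are given as a description. Of 2269 other genes with a symbol, those most like the mean of the members were ZP3 and H2AFZ at 0.94 and PGAM2 and POU2F2 at 0.93, and 12 genes exceeded 0.9, where the median was 0.01. POU2F2 encodes a transcription factor known from B cells and H2AFZ a histone variant. The 5 least alike were APOA5 and CKM at −0.87 and DGAT2, HAND1 and SSTR3 at −0.82.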

How the data were processed

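RNA of pools was hybridised to 79 Agilent pig arrays with 1 colour, and the arrays were grouped by tissue, age and treatment as the labels give them. The spot intensities were deposited by the authors as Agilent Feature Extraction 10.7.3.1 wrote them (per the file headers), linear and background-subtracted, but not yet normalized from array to array. The log2 values that the authors deposited as a table, which the methods describe as quantile normalized, were used only to find which array each column holds. The correlation above which a column was taken to hold an array was 0.85, over 12323 probes. The files name no genome build, so no positions are given.

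Control spots and flagged spots were left out, signals below 1 were set to 1, log2 was taken, and the arrays of each fit were quantile normalized, separately for the tissues of each day and for blood, and over all 79 arrays for ages, for blood against gut and for the levels given. Probes were retained if they had a value on every array of a fit and were at or above the 20th percentile on every array of at least 1 group. The rule on values left 3 of 4 probes of SLA-DQB1 and of SLA-DRB1 at day 55 and over all arrays. It left 6 of 7 SLA-DQA1 probes at day 176 and over all arrays. Probes of a gene were averaged. This left 28236 genes for the tissues of day 8, 28832 for blood, 30005 for day 55, 28236 for day 176 and 32915 over all arrays. Means of tissue, day and treatment were compared in linear models (limma 3.58.1, run in R 4.3.3). A gene was called at an adjusted p under 0.05 (Benjamini-Hochberg over all genes of a comparison) and a fold change above 1.5. The fits were checked on simulated data.

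The 9 members and the gene lists were chosen with earlier results of these data known. Genes of the lists are named when called, at most the 2 largest rises and falls per list and comparison. The genes named as most and least alike are from the 5 with the highest and the 5 with the lowest correlation. Some genes that these rules name are not reported here. On the array were 3 of 15 B cell genes, 11 of 21 of dendritic cells and macrophages, 7 of 12 T cell, 2 of 8 plasma cell, 5 of 11 neutrophil, 9 of 17 epithelial, 1 of 4 ileal enterocyte, 4 of 8 smooth muscle, 1 of 11 erythroid, 10 of 12 costimulation, 6 of 13 antigen processing, 7 of 7 interferon gamma signalling, 1 of 8 class II transactivation and 0 of 5 class II turnover genes.

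At day 8 each sow set gave 1 pool per treatment, numbered n, n + 4 and n + 8. By the methods, blood, jejunum and ileum of a pool came from the same animals. After removal of the group means, pools of a sow set correlated over genes at 0.0986 (jejunum), 0.0733 (ileum) and 0.143 (blood) on average, and jejunum with ileum of a pool at 0.176 at day 8, 0.0743 at day 55 and 0.0496 at day 176. The methods name no block, so blocks were alternatives. The other alternatives were scaling to the 75th percentile, normexp background correction with an offset of 50 (on the median spot signal, as the files used here hold no mean signal), other filters, single probes, other sets of arrays, the slide, and each array left out. The number of arrays limits the precision. Each label names a pool in 1 tissue at 1 day, and p-values measure the spread between pools.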

Additional observations from a re-analysis of the deposited data

Results flagged for a closer look

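In 12 of 144 groups of 4 pools and genes tested (8.33%, where chance gives about 1 in 20), 1 pool lay far from the other 3 of its tissue, day and treatment. In blood these were SLA-DMB in T2 pool 5 at a log2 signal of 11.61, SLA-DOB in T2 pool 8 at 6.56 and SLA-DRB1 in T3 pool 1 at 12.46. In jejunum of day 8 they were SLA-DQB1 in T2 pool 8 at 10.07, on an array where the surroundings of 1 of its probes were out of pattern, and SLA-DQB1 at 12.31 and SLA-DRB1 at 14.13 in T3 pool 2. In ileum of day 8 it was SLA-DRB1 in T1 pool 11 at 11.57. At day 55 they were CD74 at 13.78 and SLA-DQB1 at 14.02 in ileum T3 pool 1, SLA-DOB in jejunum T1 pool 11 at 6.55 and SLA-DOA in jejunum T3 pool 3 at 10.29. At day 176 it was SLA-DRB1 in jejunum T1 pool 9 at 14.33.

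The change from day 8 to day 55 differed between ileum and jejunum by the test of the difference itself, with ileum minus jejunum at 1.01 for SLA-DRA, 0.83 for SLA-DRB1, 1.19 for SLA-DQA1, 1.30 for SLA-DMA, 1.18 for SLA-DMB, 1.81 for SLA-DOA, 1.53 for SLA-DOB and 1.78 for CD74. These ages lay on different slides and, under the names of these arrays in the authors' table of normalized values, the difference was lower in ileum for 8 members. The ileal gene FABP6 was higher in jejunum than in ileum under those names, at 17.71 to 18.31 against 5.05 to 16.14 at day 55. Under the scanner names FABP6 did not separate the tissues either, at 13.47 to 18.50 in jejunum and 17.71 to 18.31 in ileum at day 55.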

How the results depend on the processing

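The counts of members called were within 1.5 times the reported ones in most settings. The alternatives under the names of the authors' table, without the SLA-DQB1 probe whose surroundings were out of pattern and without the least typical arrays were chosen after seeing the data. With scaling to the 75th percentile, 7 members were called for day 55 versus day 8 in jejunum, 3 for ileum versus jejunum at day 55 and 1 for day 176 versus day 55 in ileum. In that scaling SLA-DQA1 turned from near no difference to 0.70 (adjusted p = 0.00181) for the change from day 55 to day 176, ileum minus jejunum. With normexp background correction 1 was called for day 176 versus day 55 in jejunum. With each probe tested by itself, 8 were called for blood versus ileum, 3 for day 176 versus day 55 in ileum and 10 among the treatments of day 55. Without the filter on low values 0 were called for ileum versus jejunum at day 8. With the slide as a fixed term 0 were called at days 8 and 176 for ileum versus jejunum, where tissue and slide are largely shared, and CD79A turned to −0.58 (adjusted p = 0.895) at day 176. With the slide as a random term 0 were called for ileum versus jejunum at day 8 and 1 for day 55 versus day 8 in jejunum. With all arrays in 1 fit 1 treatment difference was called in blood (SLA-DQB1, T2 versus T1, 1.61, adjusted p = 0.00827) and 1 at day 55, and with each tissue of day 55 by itself 3.

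With the pool as a replicate block, 0 members were called for ileum versus jejunum at day 8 and 7 at day 176, and the sow set as a replicate block left the count at 0 for the treatments of day 8 in tissues and blood. The pool block was fitted for ileum versus jejunum at the 3 ages, where the count at day 55 stayed at 8, and the sow set block for these treatments of day 8, and no other result was fitted with a block. Under the names of the authors' table, 7 members were called for blood versus ileum, 9 for day 176 versus day 55 in ileum and 8 in jejunum, 0 for day 55 versus day 8 in ileum and 8 in jejunum, 3 for ileum versus jejunum at day 8, 0 for the treatments of day 55 and 2 for those of day 8. With each array left out in turn, the counts were 9 to 9 for day 55 versus day 8 in ileum and 1 to 4 in jejunum, 0 to 0 and 2 to 3 for day 176 versus day 55, 0 to 1, 8 to 8 and 7 to 8 for ileum versus jejunum at days 8, 55 and 176, 4 to 5 for blood versus ileum, 6 to 7 for blood versus jejunum, and among the treatments 0 to 0 at day 8, 0 to 1 in blood (SLA-DQB1 without T1 pool 12, 1.73, adjusted p = 0.0472), 3 to 5 at day 55 and 0 to 0 at day 176. The share of called genes that were higher moved from 55.8% to 73.6% for blood versus jejunum and to 74.5% for blood versus ileum with scaling to the 75th percentile. SLA-DOB in blood lay near background, where its differences have the least precision. Causes of these changes were not tested.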
